A study of Mus musculus with 26 samples.

Results

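The Fat genes encode the atypical cadherins Fat1, Fat2, Fat3 and Fat4, very large cell-surface proteins that were followed here through 26 mouse skin cell lines. The 4 genes were chosen by name, out of 18193 genes with a probe set that names 1 gene only, and they had 5 such probe sets among 45037. Fat1 was singled out because earlier results of these data had shown it to separate spindle from non-spindle carcinoma lines, so its level in those lines is a description and carries no test. The same holds for every Fat gene in that comparison, and for Fat1 in spindle against keratinocyte lines.

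A classical cadherin such as E-cadherin (Cdh1) joins neighbouring cells through catenins. A Fat protein carries a much longer row of cadherin repeats and a cytoplasmic tail that is tied to actin assembly, to planar polarity (the alignment of cells within a sheet) and to the growth-restraining Hippo pathway. The Drosophila gene fat gave the family its name and is a growth suppressor of the imaginal discs. Fat1 is abundant in mouse epidermis, and its loss in mouse skin squamous carcinoma has been tied to a mixed epithelial and mesenchymal state. Fat4 is the mammalian protein closest to Drosophila Fat and binds the cadherin Dchs1.

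The lines stand for stages of skin tumour development. Spindle pathology, in which squamous carcinoma cells are long and resemble fibroblasts, was recorded for the carcinoma lines A5, CarB, CarC, D3, D3DP, H11 and MSN2 (n = 7). It was recorded as lacking in the carcinoma lines B9, B9ras, B9rassmad, E4, PDV, PDVC57, SN161, MSC7A, MSC11B, MSC12, MSCP1 and MSCP5 (n = 12). P6 was the only papilloma line, and C5N and NK were the immortalised keratinocyte lines (n = 2), NK coming from a p53 null mouse. Tumours of 6 non-spindle lines had grown in Spretus-cross mice, in a Spretus/NIH cross for SN161 and in a Spretus/CBA cross for MSCP5, MSC12, MSCP1, MSC11B and MSC7A. The strain of the other lines is not given in the sources used here. All lines grew in serum and none was treated. The flag for spindle pathology was not stated for 2945CA and for MSCb1, a Spretus/CBA line. It went against the cell type label for B9Smad, which the label calls spindle and the flag does not, and the keratinocyte flag went against the label of 1 further keratinocyte line, whose name is not reported here. These 4 lines were put in no group and are given by value.

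Each line was measured on 1 Affymetrix M430 2.0 array, and every level below is a log2 value made by the authors with RMA, so 1 unit is a 2-fold step in signal. The median over all probe sets lay between 5.04 and 5.15 on every array, and a probe set under it is treated as dim. No pair of arrays was identical, and the closest pair, H11 and A5, correlated at 0.993 over probe sets. Of 5 epithelial markers, Cdh1, Epcam and Krt14 were below the array median in all 7 spindle lines. Krt5 and Trp63 were not below it in every spindle line. Over 5 epithelial markers the mean of a line ran from 4.21 to 5.05 in spindle lines, from 4.25 to 12.72 in non-spindle lines and from 12.37 to 12.44 in keratinocyte lines. Over 8 fibroblast and mesenchymal markers it ran from 7.0 to 10.98 in spindle lines, from 4.72 to 10.47 in non-spindle lines and from 4.65 to 5.25 in keratinocyte lines. These markers move with the comparisons below, and their part in the results was not tested. Of 4 leukocyte markers measured, Ptprc, Itgam and Adgre1 were below the array median in every line, and Cd3e was not.

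The 250 bases upstream of the annotated start of Fat1, Fat2 and Fat4 are printed because the levels of Fat1 and Fat2 went together over the lines while those of Fat4 tended the other way. They were taken from RefSeq on GRCm38.p6 and read 5′ to 3′ on the strand of the gene, and all 4 Fat genes had an entry. Capitals mark CAGGTG, the E-box letters that Snail and Zeb repressors can bind, and GGAATG, the letters that TEAD factors can bind. Both strands were searched, also for the grainyhead-like letters AACNGGTT, and no 2 of these motifs overlapped.
Fat1, chr8:44949958-44950207, + strand: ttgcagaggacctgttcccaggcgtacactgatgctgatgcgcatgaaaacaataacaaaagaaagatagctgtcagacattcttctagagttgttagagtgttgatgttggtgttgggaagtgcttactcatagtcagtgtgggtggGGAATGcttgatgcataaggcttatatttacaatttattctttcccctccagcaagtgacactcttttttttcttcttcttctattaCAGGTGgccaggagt
Fat2, chr11:55312258-55312507, - strand: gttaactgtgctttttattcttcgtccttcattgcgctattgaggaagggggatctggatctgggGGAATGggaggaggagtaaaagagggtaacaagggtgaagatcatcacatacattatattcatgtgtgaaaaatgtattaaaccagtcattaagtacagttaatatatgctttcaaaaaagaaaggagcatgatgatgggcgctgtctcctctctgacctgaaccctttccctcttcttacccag
Fat4, chr3:38886690-38886939, + strand: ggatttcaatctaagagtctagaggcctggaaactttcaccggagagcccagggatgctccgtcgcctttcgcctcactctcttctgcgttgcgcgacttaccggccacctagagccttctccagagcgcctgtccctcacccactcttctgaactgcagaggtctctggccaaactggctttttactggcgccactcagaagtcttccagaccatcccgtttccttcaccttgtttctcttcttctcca
The Fat1 window held CAGGTG from 15 to 10 bases upstream of the start and GGAATG from 102 to 97 bases upstream. The Fat2 window held GGAATG from 185 to 180 bases upstream, and the Fat3 and Fat4 windows held none of the 3 motifs. Over 32851 windows of the same length, 17.2% held CAGGTG, 12.6% held GGAATG and 1.79% held AACNGGTT, so that the matches are common ones. The windows also differed in base composition. The share of G and C was 42.0% for Fat1 and 41.6% for Fat2, with 2 and 3 CG pairs, against 54.8% for Fat4 and 70.4% for Fat3, with 11 and 27 CG pairs. The median window had 52.4% and 6 CG pairs. The Fat1 and Fat2 windows end in or close to a run of C and T followed by CAG, the letters also found where introns end, and whether transcription starts at these annotated positions in the lines was not tested.

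Fat1 was above the array median on all 26 arrays with its single probe set, 1433857_at, and it was lowest in the spindle lines. The spindle lines had 10.52 in D3, 10.88 in D3DP, 10.54 in A5, 11.06 in MSN2, 10.37 in H11, 10.29 in CarC and 10.22 in CarB. Among the non-spindle lines, the lowest was B9rassmad at 11.34, the median was 12.45 and the highest was B9 at 13.13. Every spindle line lay below every non-spindle line, with a gap of 0.28 between MSN2 and B9rassmad. P6 stood at 12.97, and the keratinocyte lines at 12.12 in C5N and 12.73 in NK. Fat1 was at or above the level of C5N in 8 of the 12 non-spindle lines, and in 0 of the 7 spindle lines.

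In numbers, Fat1 averaged 10.55 ± 0.31 in spindle lines (SD, n = 7) and 12.37 ± 0.69 in non-spindle lines (SD, n = 12). The difference was -1.81 on the log2 scale (SE 0.27), or 3.52-fold lower in spindle lines. Genes whose groups did not overlap in this direction were 2 of 12641, a background of 0.0158%, and nothing is read from it, since this contrast chose Fat1. RNA of a culture cannot tell fewer cells that express a gene from less RNA per cell, here or below. Against keratinocyte lines, at 12.43 ± 0.43 (SD, n = 2), Fat1 was 3.67-fold lower in spindle lines, a difference of -1.88 (SE 0.45), also without a test.

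Fat1 in non-spindle carcinoma against keratinocyte lines was tested. That contrast did not choose Fat1, but its non-spindle values entered the choice, so the test is not independent of it. The difference was -0.06 (SE 0.43) with an adjusted p of 0.977 from limma, while 2.02% of genes were called in that comparison. The SE leaves room for a change of either sign, and only 2 keratinocyte lines stand behind it. Within the non-spindle lines Fat1 covered a range of its own. PDV, B9ras, MSCP1 and B9 were at 13.02 to 13.13, PDVC57 at 12.84, MSCP5 at 12.61, MSC7A at 12.30 and SN161 at 12.15. E4 at 11.75, MSC12 at 11.55, MSC11B at 11.53 and B9rassmad at 11.34 made the lower end, and none of them reached the keratinocyte lines. The widest step between neighbouring lines over the whole series, 0.37, fell between E4 and C5N and not at the border of the spindle lines.

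**Figure D1:**
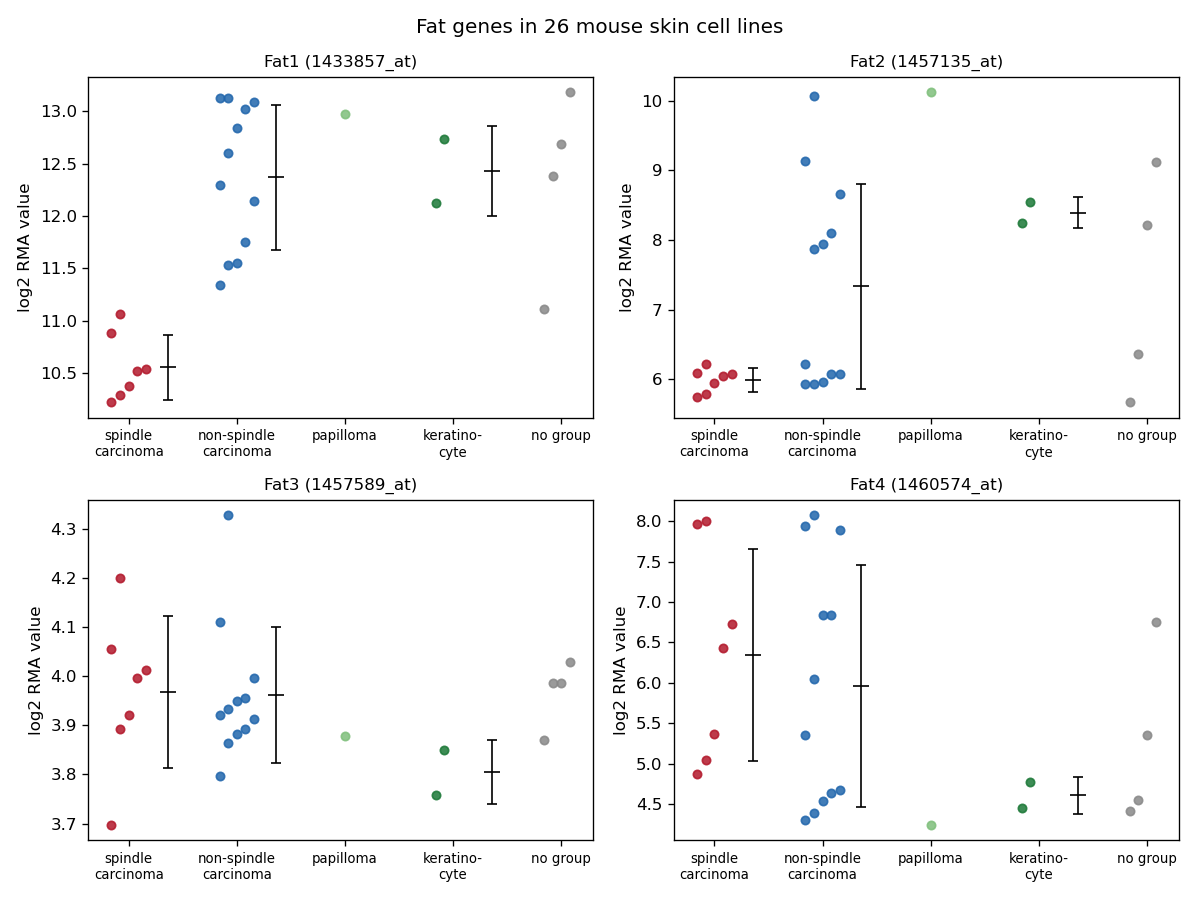
Log2 RMA value of each Fat gene (vertical axes, 1 panel per gene, each with its own range) in spindle carcinoma, non-spindle carcinoma, papilloma and keratinocyte lines and in the 4 lines with no group. Points are lines and bars are mean and SD. Fat1 spindle lines end at 11.06 and non-spindle lines start at 11.34, Fat2 leaves a gap between 6.36 and 7.88, Fat3 stays between 3.70 and 4.33, and Fat4 spreads from below 5 to about 8 within both carcinoma groups.

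Fat1 and E-cadherin went together over the 26 lines (Pearson correlation 0.847, Spearman 0.798, as a description), and these lines fall into a set low and a set high in Cdh1. Fat1 was chosen for its separation of the spindle lines, which are all low in Cdh1, so the correlation follows in part from that choice. Cdh1, the adhesion protein whose loss marks epithelial cells turning mesenchymal, lay between 3.02 and 3.78 in the spindle lines. It was just as low in MSC12 at 3.25, MSC11B at 3.25 and MSC7A at 3.54, which are labelled non-spindle. The other non-spindle lines had 9.13 to 11.78, and the keratinocyte lines 11.55 and 11.60. Fat1 in these 3 non-spindle lines was 11.55, 11.53 and 12.30, of which only the value of MSC7A reached C5N. That they lie above the spindle lines follows from how Fat1 was chosen, and nothing is read from it. Through these 3 lines Cdh1 overlapped between the groups, with a difference of -5.70 (adjusted p = 0.0542, limma), where 0.0633% of genes were called. Leaving out MSC12, MSC11B or MSC7A gave Cdh1 adjusted p-values of 0.0152, 0.00988 and 0.0176. These lines were picked out by their low Cdh1, so the smaller values follow from that choice, and nothing is read from them. Cdh1 was called under 4 of 27 settings, each of which left out 1 or more of these lines. Its adjusted p otherwise reached 0.166. Among the lines with no group, 2945CA had low Cdh1 at 3.40 and Fat1 at 11.11, between the highest spindle and the lowest non-spindle line. MSCb1 had Cdh1 at 10.02 and Fat1 at 12.69, B9Smad had 8.49 and 12.38, and the keratinocyte line with conflicting labels had 10.46 and 13.18.

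**Figure D2:**
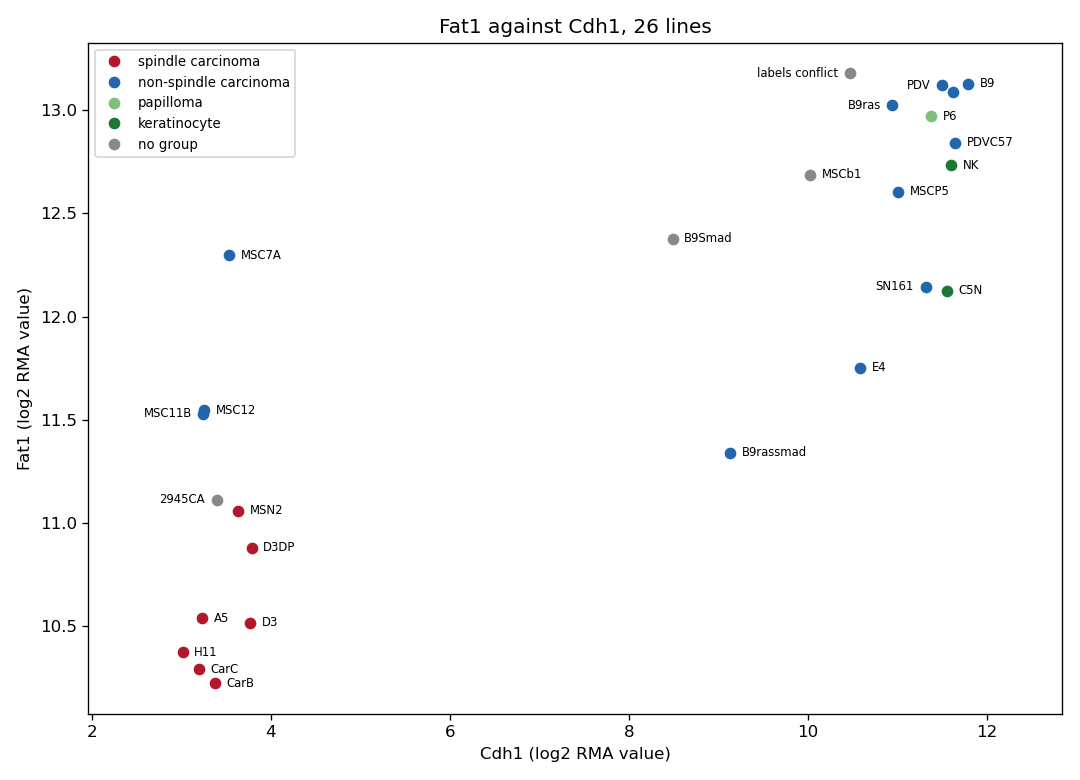
Fat1 against Cdh1, both as log2 RMA values, with 1 point for each of the 26 lines, named where room allows (labels conflict: the keratinocyte line with conflicting labels). MSC7A, MSC12 and MSC11B share the low Cdh1 of the spindle lines, and no line lies between 3.78 and 8.49 in Cdh1. The correlation over all lines is 0.847, which follows in part from how Fat1 was chosen.

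Fat2, which lies at cell contacts in human squamous carcinoma cells and has been tied there to cell migration, came in high and low lines with nothing between. With its single probe set 1457135_at, the spindle lines had 6.07 in D3, 6.21 in D3DP, 6.09 in A5, 6.04 in MSN2, 5.94 in H11, 5.79 in CarC and 5.75 in CarB. Among the non-spindle lines the lowest was B9rassmad at 5.93, the median 7.05 and the highest B9 at 10.07. C5N had 8.24, NK 8.55 and P6 10.12. No line lay between 6.36 (MSCb1) and 7.88 (MSCP5), a step of 1.52 that left 11 lines above and 15 below. All spindle lines were below it and both keratinocyte lines above it, and the non-spindle lines were divided, 6 on each side.

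The non-spindle lines above the step were B9 at 10.07, MSCP1 at 9.13, B9ras at 8.66, PDV at 8.11, PDVC57 at 7.95 and MSCP5 at 7.88. Those below it were MSC7A at 6.22, MSC11B at 6.08, E4 at 6.07, MSC12 at 5.97, SN161 at 5.94 and B9rassmad at 5.93. Of these, 5 were within the range of the spindle lines, and MSC7A was level with the highest of them, D3DP at 6.21. The low values of Fat2 still exceeded the array median. How much of them is background of the probe set was not tested. The spread of Fat2 over the non-spindle lines (SD 1.48) was at the 94.2 percentile of all genes tested, and over the spindle lines (SD 0.17) at the 14.9 percentile.

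Fat2 averaged 5.98 ± 0.17 in spindle lines (SD, n = 7), 7.33 ± 1.48 in non-spindle lines (SD, n = 12) and 8.39 ± 0.22 in keratinocyte lines (SD, n = 2). Spindle lines were 1.35 below non-spindle lines, as a description, with an SE of 0.53. Against keratinocyte lines Fat2 was 5.31-fold lower in spindle lines, a difference of -2.41 (SE 0.89) without overlap. It did not pass in the model of all 3 groups (adjusted p = 0.121, limma), where 5.35% of genes were called. That model takes its spread largely from the divided non-spindle lines. With the spindle and keratinocyte lines alone, a fit added after the data were seen, the same difference had an SE of 0.17 and an adjusted p of 3.22e-05, and 9.6% of genes were called. That fit was the only 1 of 18 settings in which this Fat2 difference passed. Groups without overlap in this direction were 10.1% of genes. Non-spindle against keratinocyte lines differed by -1.06 (SE 0.84, adjusted p = 0.725).

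The high and low lines of Fat2 matched those of some basal keratinocyte genes, a pattern noticed in the data and given without a test. The genes were picked after values were seen. How many of all genes divide the lines in this way was not counted, so the match is not shown to be particular to them. Krt5, a keratin of the basal layer, was between 11.58 and 14.01 in the 11 lines with high Fat2 and between 4.79 and 6.95 in the 15 others. Trp63, the transcription factor that maintains basal keratinocytes, was between 9.0 and 11.53 against 4.18 to 7.78, and the hemidesmosome collagen Col17a1 between 10.71 and 13.71 against 3.20 to 5.70. Cdh1 did not divide the lines in this way. SN161, E4 and B9rassmad had Cdh1 at 11.31, 10.58 and 9.13 and low Fat2, and their Krt5 was 5.60, 4.79 and 6.95. Fat1 also overlapped, with 12.12 to 13.18 in lines high in Fat2 and 10.22 to 12.69 in lines low in it.

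**Figure D3:**
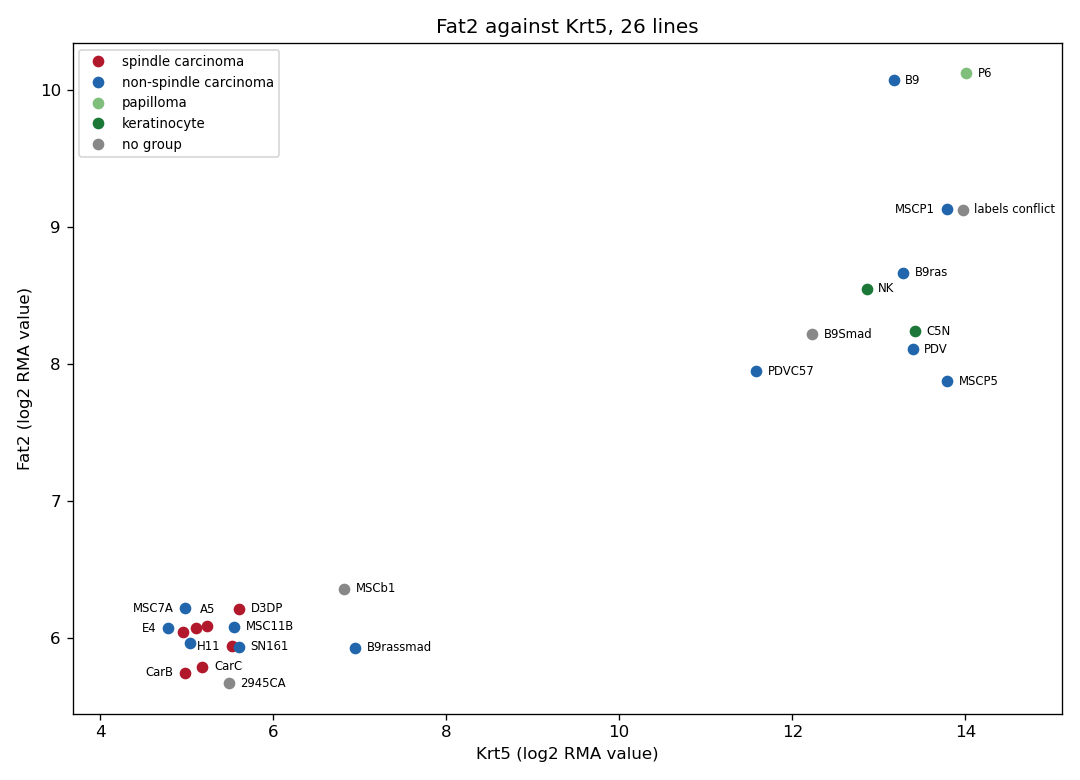
Fat2 against Krt5, both as log2 RMA values, with 1 point for each of the 26 lines, named where room allows. Lines fall into a low corner, with Krt5 up to 6.95 and Fat2 up to 6.36, and a high corner, with Krt5 from 11.58 and Fat2 from 7.88, and non-spindle carcinoma lines are in both.

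Fat4, the partner of Dchs1 in planar polarity and tissue growth, varied widely within both carcinoma groups. Its representative probe set 1460574_at gave 4.87 in D3, 6.43 in D3DP, 8.0 in A5, 5.36 in MSN2, 7.97 in H11, 6.73 in CarC and 5.05 in CarB. Among the non-spindle lines MSCP1 was lowest at 4.30, the median was 5.70 and MSC12 was highest at 8.08. C5N had 4.45, NK 4.77 and P6 4.25. Spindle and non-spindle lines overlapped over most of their range, and the keratinocyte and papilloma lines lay at the dim end. The probe set was above the array median on 14 of 26 arrays.

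The highest Fat4 levels came from both carcinoma groups, in A5 and H11 among the spindle lines and in MSC12, MSC11B (7.94) and MSC7A (7.89) among the non-spindle lines. A step of 1.05 set these 5 lines apart from the 21 others, and all 5 had Cdh1 at 3.54 or less. A second probe set, 1459749_s_at, followed the first with a correlation of 0.970 over the 26 lines. Fat4 averaged 6.34 ± 1.31 in spindle lines (SD, n = 7), 5.96 ± 1.50 in non-spindle lines (SD, n = 12) and 4.61 ± 0.23 in keratinocyte lines (SD, n = 2).

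The Fat4 differences did not pass their tests. Spindle against keratinocyte lines differed by 1.73 (SE 1.07, adjusted p = 0.376, limma), with no overlap and a gap of 0.09, where 12.9% of genes had higher groups without overlap. By the second probe set, 1459749_s_at, these groups overlapped, D3 at 3.42 lying below NK at 3.45. Non-spindle against keratinocyte lines differed by 1.35 (SE 1.01, adjusted p = 0.699), and by 0.68 without MSC12, MSC11B and MSC7A (adjusted p = 0.843). Spindle against non-spindle lines differed by 0.38 (SE 0.63), as a description, with 0.11 to 0.63 when 1 line was left out, 1.05 without MSC12, MSC11B and MSC7A and 0.14 with the conflicting lines by label. The spread of Fat4 was at the 94.9 percentile of genes in spindle lines and at the 94.4 percentile in non-spindle lines, so these SEs are wide.

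The lines with the highest Fat4 were not those high in Fat2. The 11 lines with high Fat2 had Fat4 between 4.25 and 6.05, and apart from MSCP5 they were at 4.77 or less. Among the 15 lines low in Fat2, Fat4 ran from 4.87 to 8.08, so low Fat2 went with high as well as low Fat4. MSCP5, at 7.88 for Fat2 and 6.05 for Fat4, had more Fat4 than 5 lines low in Fat2, which were D3, MSN2, CarB, B9rassmad and MSCb1 at 4.87 to 5.36.

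**Figure D4:**
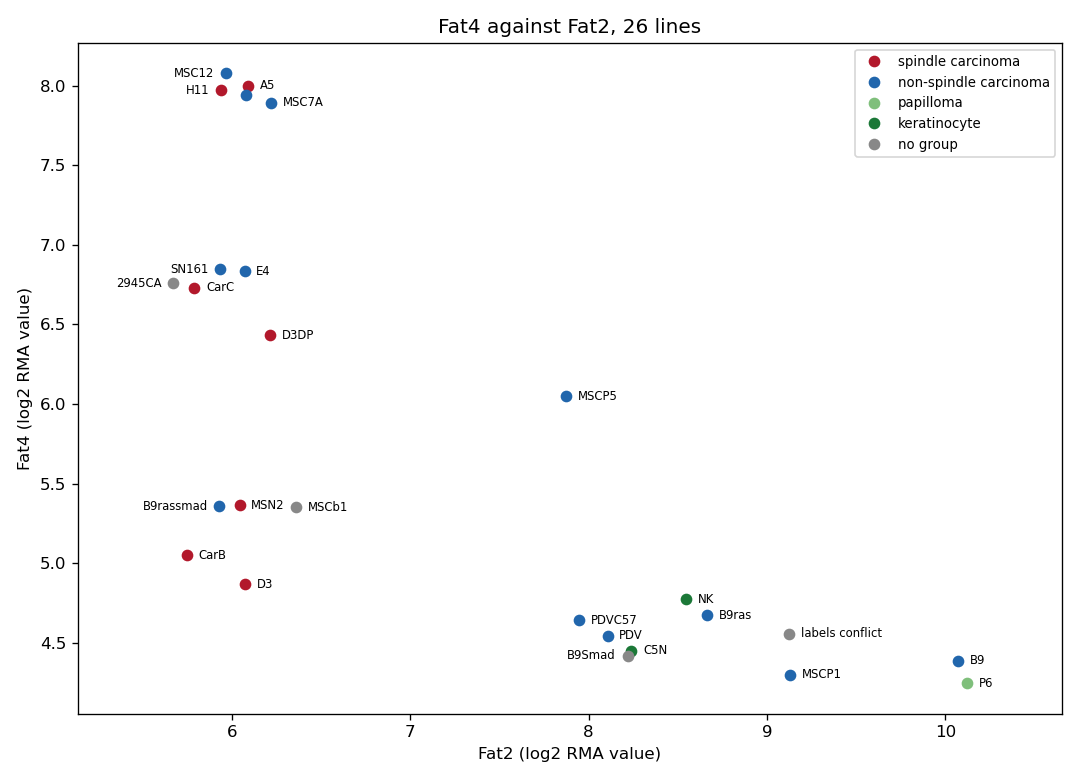
Fat4 (1460574_at) against Fat2, both as log2 RMA values, with 1 point for each of the 26 lines, named where room allows. No line with Fat2 at 7.88 or more exceeds 6.05 in Fat4, and the lines low in Fat2 run from 4.87 to 8.08 in Fat4.

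Fat3, which shapes nerve cell processes in the mouse retina, was dim in every line. Its probe set 1457589_at lay between 3.70 and 4.33 and was above the array median on 0 of 26 arrays, so it failed the filter that the other 3 Fat genes passed. It averaged 3.97 ± 0.16 in spindle lines (SD, n = 7), 3.96 ± 0.14 in non-spindle lines (SD, n = 12) and 3.80 ± 0.07 in keratinocyte lines (SD, n = 2). At this signal a difference was not detectable, which does not show that Fat3 is absent. In a fit without the filter, its adjusted p was 0.555 for spindle and 0.767 for non-spindle against keratinocyte lines.

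The cross was compared within the non-spindle lines, 6 against 6, and 0% of genes were called in it by limma, with 1383 of 12641 at an unadjusted p under 0.05. Fat4 was at 6.85 ± 1.48 in Spretus-cross lines and 5.07 ± 0.93 in the other non-spindle lines (SD, n = 6 each), a difference of 1.78 that did not pass (SE 0.65, adjusted p = 0.417). Leaving out 1 line gave 1.53 to 2.29 (adjusted p = 0.0555 to 0.684), with the lowest p without MSCP1. MSCP1 is the Spretus-cross line lowest in Fat4, so nothing is read from that lowest p. Fat2 was at 6.87 ± 1.33 in Spretus-cross lines and 7.80 ± 1.58 in the others, a difference of -0.93 (SE 0.77, adjusted p = 0.662). Fat1 was at 12.20 ± 0.61 in Spretus-cross lines and 12.53 ± 0.78 in the others, a difference of -0.33 (SE 0.38, adjusted p = 0.761). The 3 non-spindle lines low in Cdh1 are all Spretus-cross lines, and the cross and their low Cdh1 cannot be told apart for them. Without them the Fat4 difference was 0.66 (adjusted p = 0.988), the Fat2 difference -0.15 (adjusted p = 0.997) and the Fat1 difference 0.079 (adjusted p = 0.997).

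Some lines share a name, and the labels do not say how they are related. Fat1 was 13.13 in B9, 13.02 in B9ras, 12.38 in B9Smad and 11.34 in B9rassmad. Fat2 was 10.07 in B9, 8.66 in B9ras, 8.22 in B9Smad and 5.93 in B9rassmad. B9rassmad was the lowest of these lines in both genes, and what its name stands for is not stated in the labels. PDV and PDVC57 were at 13.12 and 12.84 for Fat1 and at 8.11 and 7.95 for Fat2. D3 and D3DP, like CarB and CarC, lay close to each other for Fat1 and Fat2 and apart for Fat4, at 4.87 and 6.43 and at 5.05 and 6.73. Each of these is 1 array per line, without a replicate check.

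The papilloma line P6 had the highest Fat2 of all 26 lines, at 10.12, which was 1.73 above the mean of the keratinocyte lines. That difference was at the 96.3 percentile of all genes tested for this line, as a description of 1 array. For Fat1 the difference was 0.54, at the 81.5 percentile, and for Fat4 it was -0.37, at the 24.9 percentile.

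Genes whose products act directly with Fat proteins were taken from a list of 8, of which 7 had a single-gene probe set and were tested, and Dchs2 was not analysed here. Of the 7, 0 were called by limma in each of the 4 comparisons. An unadjusted p under 0.05 was found for 3 in spindle against non-spindle lines, where 20.7% of all genes had one, for 2 in spindle and 0 in non-spindle against keratinocyte lines, and for 1 in the Spretus cross (20.7%, 12% and 10.9% of all genes). Fjx1, the mouse relative of the Drosophila kinase Four-jointed that phosphorylates Fat and Dachsous cadherin repeats in the fly, had a correlation of 0.951 with Fat2 over the 26 lines, as a description. Fjx1 had 6.69 in D3, 6.15 in D3DP, 5.89 in A5, 7.05 in MSN2, 5.78 in H11, 5.86 in CarC and 5.71 in CarB. In non-spindle lines it ran from 5.51 in SN161 through a median of 6.95 to 9.47 in B9, and it was 8.75 in C5N, 8.14 in NK and 9.26 in P6. The 11 lines high in Fat2 had Fjx1 at 7.06 or more and the 15 others at 7.05 or less, with no gap between them. The share of all genes that divide these lines was not counted.

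Fjx1 averaged 6.16 ± 0.51 in spindle lines (SD, n = 7), 7.20 ± 1.28 in non-spindle lines (SD, n = 12) and 8.45 ± 0.43 in keratinocyte lines (SD, n = 2). Spindle lines differed by -2.28 from keratinocyte lines (SE 0.80, adjusted p = 0.104, limma) and by -1.03 from non-spindle lines (SE 0.48, adjusted p = 0.225). With spindle and keratinocyte lines alone, the fit added after the data were seen, the adjusted p of the first was 0.00564. In that fit 9.6% of genes were called, and it was the only 1 of 18 settings in which this Fjx1 difference passed. Of the 2 other Fjx1 probe sets, 1422733_at averaged 4.67 ± 0.72 in spindle lines, 6.05 ± 1.68 in non-spindle lines and 7.87 ± 0.44 in keratinocyte lines. 1457160_at was dim, at 4.69 ± 0.17, 4.66 ± 0.14 and 4.55 ± 0.11 in the same groups.

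Lix1l, a relative of the Drosophila gene lowfat whose product binds Fat and Dachsous in the fly, was higher in every spindle line than in the keratinocyte lines. Groups without overlap in this direction were 12.9% of genes. It lay between 7.73 and 9.13 in spindle lines, at 4.86 in C5N, 4.75 in NK and 4.64 in P6, and anywhere from 3.97 to 8.90 in non-spindle lines. MSC12, MSC11B and MSC7A, at 8.61, 8.90 and 8.45, were the only non-spindle lines within the spindle range. Lix1l averaged 8.30 ± 0.47 in spindle lines (SD, n = 7), 6.27 ± 1.75 in non-spindle lines (SD, n = 12) and 4.80 ± 0.08 in keratinocyte lines (SD, n = 2). The difference between spindle and keratinocyte lines was 3.5 (SE 1.06, adjusted p = 0.0591, limma). It passed under only 3 of 18 settings. With those lines alone, a fit added after the data were seen, the adjusted p was 0.000196, where 9.6% of genes were called. Without MSC12, MSC11B and MSC7A, the non-spindle lines highest in Lix1l, the adjusted p was 0.00438. These lines are in neither group of this comparison, so the difference stayed at 3.5 and only the spread shrank. Nothing is read from that smaller p. With the conflicting lines placed by their cell type label the adjusted p was 0.0293.

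Zdhhc9, whose Drosophila relative Approximated acts downstream of Fat, averaged 7.26 ± 0.47 in spindle lines (SD, n = 7), 8.02 ± 0.59 in non-spindle lines (SD, n = 12) and 7.26 ± 0.59 in keratinocyte lines (SD, n = 2). The groups of carcinoma lines overlapped, and the difference was -0.76 (SE 0.25, adjusted p = 0.128). Dchs1, the ligand of Fat4, lay between 4.94 and 5.51 over all lines, close to the array median. Fbxl7, a ubiquitin ligase subunit whose fly relative binds Fat, lay between 4.72 and 5.30. Zdhhc14 lay between 7.60 and 8.36 and Zdhhc18 between 7.54 and 8.75, each by the brightest of its several probe sets.

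**Figure D5:**
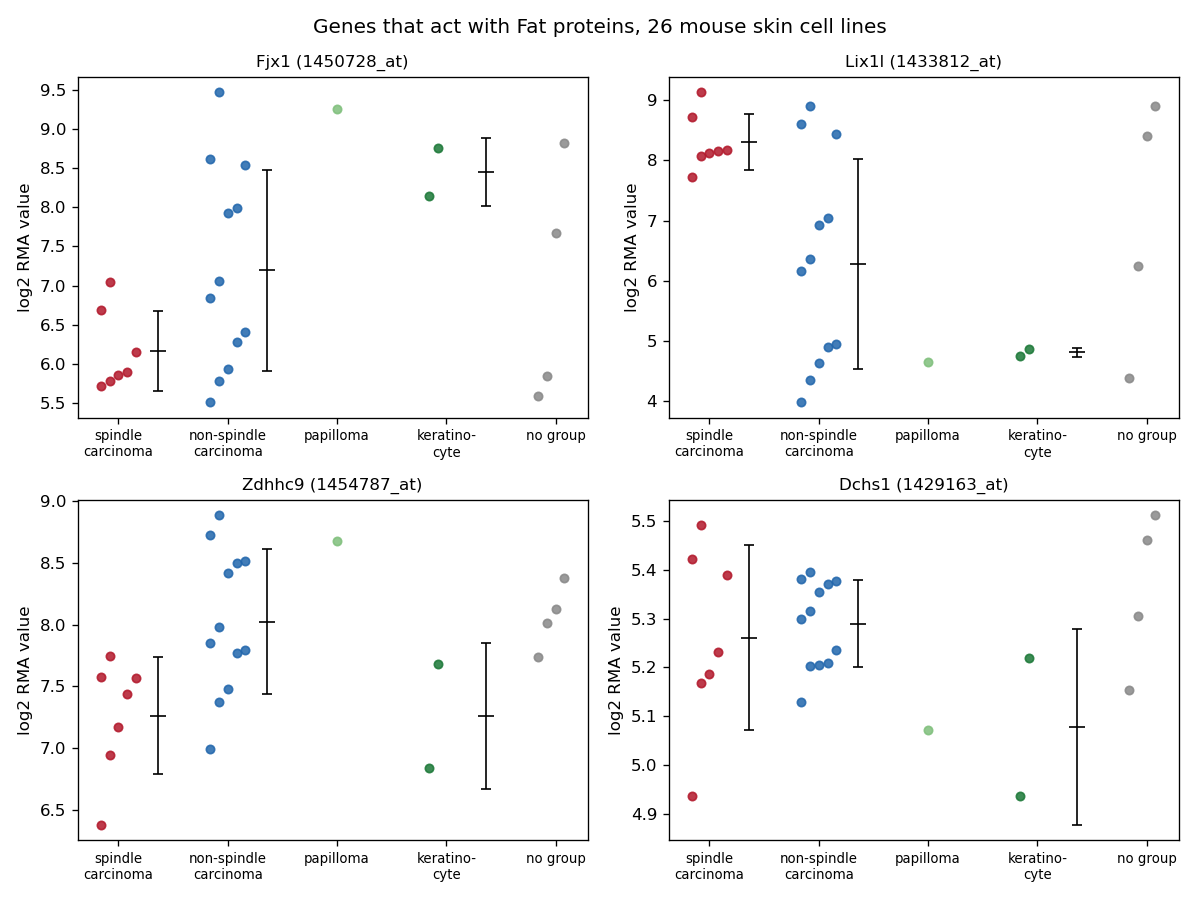
Log2 RMA value (vertical axes, 1 panel per gene, each with its own range) of Fjx1, Lix1l, Zdhhc9 and Dchs1 in spindle carcinoma, non-spindle carcinoma, papilloma and keratinocyte lines and in the 4 lines with no group. Points are lines and bars are mean and SD. Lix1l is between 7.73 and 9.13 in the spindle lines, with 3 non-spindle lines in that range, Fjx1 is between 5.71 and 7.05 in the spindle lines and overlaps the non-spindle lines, and Dchs1 spans only 4.94 to 5.51.

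The wider pathway was followed in 8 lists with 109 genes, of which 101 were tested. In spindle against non-spindle lines 0 of the 101 were called by limma, 31 had an unadjusted p under 0.05 (30.7%, against 20.7% of all genes), and their median difference was -0.10, against 0.04 over all genes. Of 18 other cadherins and catenins tested, 9 had such a p and their median difference was -0.97. Of 21 genes of the Hippo core, which passes signals from the membrane to Yap1, 2 had such a p and the median was 0.01. Of 21 targets of Yap1, 6 had such a p, with a median of -0.19.

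In non-spindle against keratinocyte lines 4 of the 101 were called, where 2.02% of all genes were. They were 3 higher and 1 lower, against 0.886% and 1.13% of all genes. Camk2d, a subunit of the calcium-dependent kinase CaMK2 that has been placed downstream of Fat1 loss, was 8.20 ± 0.62 in non-spindle lines (SD, n = 12) and 6.51 ± 0.55 in keratinocyte lines (SD, n = 2), a rise of 1.68 (SE 0.38, adjusted p = 0.0212). The receptor tyrosine kinase Axl, a target of Yap1, rose by 2.13 (SE 0.40, adjusted p = 0.00528). Tgfb1, a growth factor that drives epithelial cells to a mesenchymal form, rose by 1.34 (SE 0.33, adjusted p = 0.0365). Celsr2, a cadherin of planar polarity, fell by 2.80 on the log2 scale (SE 0.64, adjusted p = 0.0212). Without C5N, Camk2d, Tgfb1 and Celsr2 no longer passed (adjusted p = 0.158 to 0.375), and without NK, Axl, Tgfb1 and Celsr2 did not (adjusted p = 0.0974 to 0.36). With the conflicting lines placed by their cell type label, the differences were 0.62 for Tgfb1 (adjusted p = 0.549), 1.24 for Axl (0.199) and -2.06 for Celsr2 (0.0945). With the mean of all its probe sets, Tgfb1 differed by 0.74 (adjusted p = 0.0604).

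In spindle against keratinocyte lines 11 of the 101 were called, where 5.35% of all genes were. They were 5 higher and 6 lower, against 2.4% and 2.95% of all genes. The higher ones, with their log2 differences, were Ankrd1 (4.74, adjusted p = 0.0198) and Axl (2.04, adjusted p = 0.00684) among Yap1 targets, Wwtr1 (1.5, adjusted p = 0.0395), which encodes the Yap1 relative TAZ, Camk2d (2.01, adjusted p = 0.00606), and Rere (1.16, adjusted p = 0.035), a relative of the atrophin that binds Fat in the fly. Ankrd1 was between 10.06 and 11.95 in spindle lines, 8.70 in C5N and 3.99 in NK, and without NK it differed by 2.39 (adjusted p = 0.509). Wwtr1 also missed the threshold without D3, A5, H11, CarC or CarB (adjusted p = 0.0517 to 0.0621), and Rere without CarB (0.056). Rere differed by 0.60 with the mean of all its probe sets (adjusted p = 0.0977), and its adjusted p was 0.0854 with spindle and keratinocyte lines alone. Wwtr1 had 0.0505 with no filter and 0.0501 with name families as a random block. With the conflicting lines placed by their cell type label, Axl differed by 1.14 (adjusted p = 0.145).

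The lower ones held cadherins and their partners. Cdh1 fell by 8.15 (adjusted p = 0.0298), and its partners Jup and Ctnnd1 fell by 3.90 (adjusted p = 0.0229) and by 1.56 (adjusted p = 0.018). Of the planar polarity cadherins, Celsr1 fell by 5.41 (adjusted p = 0.0189), to 3.66 ± 0.27 in spindle lines (SD, n = 7) against 9.07 ± 0.39 in keratinocyte lines (SD, n = 2), and Celsr2 fell by 3.83 (adjusted p = 0.00241). In every spindle line Celsr1 (3.34 to 4.03) and Cdh1 (3.02 to 3.78) were dim, below the array median. Both genes passed the filter only through other lines, where they are high. Gadd45b, a stress response gene counted among Yap1 targets, fell by 2.57 (adjusted p = 0.011), and with the conflicting lines by label the difference was -1.60 (adjusted p = 0.0899). Without C5N, 9 of the 11 calls were lost (adjusted p = 0.0516 to 0.416) and Ankrd1 and Axl passed. Ctnnd1 then differed by -0.73. Without NK, 8 were lost (adjusted p = 0.0945 to 0.509), and Camk2d, Celsr2 and Ctnnd1 passed. Both comparisons with keratinocytes share C5N and NK.

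The genes whose levels were most like those of Fat1 over the 26 lines, among 12640 others, were Sorl1, a sorting receptor (Pearson correlation 0.904), Pigf (0.882), the basal keratin Krt14 (0.872), the mannose phosphate receptor M6pr (0.869) and P-cadherin, Cdh3 (0.864). The most opposite were Rap1a (-0.862), A830082K12Rik (-0.856), Sars (-0.853), Nudt9 (-0.846) and Rnf115 (-0.839). For Fat2 they were Plch2 (0.971), Col17a1 (0.959) and Sox15 (0.951), and for Fat4 Nfkbie (0.832), Washc5 (0.830) and St6galnac4 (0.822). Sorl1 ran from 4.93 to 6.30 in spindle lines and from 5.74 to 10.28 in non-spindle lines, so these groups overlapped. That Fat1 did not overlap there follows from how it was chosen, and nothing is read from the contrast with Sorl1. These are descriptions over lines that share groups and name families, and because Fat2 falls into a high and a low set, its correlations mostly restate which lines are in which set.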

How the data were processed

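Per the labels' protocols, log-phase cells gave RNA through Trizol and a Qiagen clean-up. The values are log2 RMA values that the authors deposited, per the submitters' processing notes. RMA gives all arrays nearly the same distribution, and its version is not given in the sources used here. With 1 array per line, their number limits the precision. The labels name no repeat cultures, so a p-value reflects only how lines differ, and lines count as independent although some share a name.

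Probe sets were named through the platform annotation: 34945 name 1 gene, 932 several and 9160 are unnamed here. Where a gene had several probe sets, the brightest on average stood for it. Genes above the array median on 2 or more arrays were tested, 12641 in all. Groups were fitted with limma 3.58.1 (R 4.3.3, lmFit and eBayes) in 1 model of 21 lines, and the Spretus cross in the 12 non-spindle lines alone. A call needed an adjusted p (Benjamini-Hochberg, over all genes) below 0.05, and every adjusted p is limma's. The fit was tested on simulated data. The Fat genes and the gene lists were chosen with earlier results of these data known. Genes named are the Fat genes, their partners, called genes of the lists and those most correlated with a Fat gene. Krt5, Trp63 and Col17a1 beside Fat2 were chosen after values were seen. Sequences are from RefSeq (GRCm38.p6). Alternatives changed the probe set rule, the filter, eBayes, the scaling, lines with conflicting labels, name families and single lines.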

Additional observations from a re-analysis of the deposited data

Results flagged for a closer look

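A lone high or low line was looked for in 40 sets of values, each of 1 probe set in 1 group of 6 or 7 lines. Of these sets 2 held one, and chance gives about 1 in 20. The sets share the same lines and are not independent. Fat3 in B9rassmad was 4.11, where the rest of the non-spindle lines outside the Spretus cross had 3.88 to 3.95 (n = 6 in all), every one below the array median. The second Fat4 probe set, 1459749_s_at, was 3.10 in MSCP1, against 5.78 to 7.38 in the other 5 Spretus-cross lines.

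Lines outside the comparisons also exceeded the keratinocyte lines. Fat2 was 10.12 in the papilloma line P6 and 9.12 in the keratinocyte line with conflicting labels, against 8.24 in C5N and 8.55 in NK. Fat4 by 1460574_at was 6.76 in 2945CA and 5.35 in MSCb1, against 4.45 in C5N and 4.77 in NK. By 1459749_s_at it was 6.24 in 2945CA and 4.52 in MSCb1, against 3.0 and 3.45 in C5N and NK, and the 4.52 of MSCb1 is below the array median.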

How the results depend on the processing

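Genes called between spindle and non-spindle lines were 8, and were 5 with the mean of all probe sets of a gene, 16 with every probe set fitted on its own, 3 with no filter, 0 with the conflicting lines placed by their cell type label (limma, 1930 at an unadjusted p under 0.05), 2 when the name family was a random block and 1954 without MSC12, MSC11B and MSC7A. Leaving out 1 line gave 2 to 471, with 471 without MSC11B, 183 without MSC7A and 179 without MSC12. The Fat2 difference there was -1.07 with the conflicting lines by label, -1.76 without those 3 lines and -1.48 to -1.10 without 1 line. For non-spindle against keratinocyte lines, 163 genes were called with the conflicting lines by label and 147 to 352 without 1 line, the fewest without C5N. Fat1 there was 0.13 (adjusted p = 0.949) without the 3 lines and -0.37 to 0.24 without 1 line. For spindle against keratinocyte lines, 1043 were called with every probe set, 1213 with those lines alone and 258 to 574 without 1 line, with 258 without C5N and 284 without NK. Fat2 was -2.41 with an adjusted p of 3.22e-05 (limma) with those lines alone, the fit added after the data were seen and the only 1 of 18 settings in which it passed. For the Spretus cross, Fat1 was 0.079 (adjusted p = 0.997) and Cdh1 0.38 (adjusted p = 0.995) without the 3 lines, and 0 to 163 genes were called without 1 line, with 163 without MSCP1. Cdh1 between spindle and keratinocyte lines was called under 16 of 18 settings, Wwtr1 under 9 and Fat4 under 0. The causes were not tested. A keratinocyte line left alone is assumed to vary like the others. No paired analysis was possible because the labels give no replicate numbers.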
